A study of Mus musculus with 12 samples.

Results

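The 48 genes described here are chemokines, cytokines, their receptors and decoys, and components of NF-kB signalling, chosen by symbol and measured in primary mouse brain endothelial cells (BECs) with and without the neuropeptide cortistatin. They are 48 of the 32419 genes listed in either of the 2 deposited tables. By role they comprise 13 chemokine ligands, 12 cytokines or growth factors, 10 receptors or decoys, 7 NF-kB subunits and feedback regulators, and 6 pathogen sensors and adaptors. Of these, 46 were listed in both tables, Cxcl9 was listed under NX/NG only and Cxcl11 after OGD-R only.

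The BECs came from C57BL/6 mice (C57BL/6J in the study's methods) of either genotype, Cort+/+ or Cort-/-, at 8 weeks of age, and each biological replicate was a pool from 3 mice. Cells were kept for 24 h under normoxia and normoglycemia (NX/NG, 21% O2 and 5.5 mM glucose), or were deprived of oxygen and glucose for 4 h at 1% O2 and then reoxygenated for 20 h (OGD-R). All 4 groups had been through the same enrichment in puromycin, and the labels also give every sample a stroke model (MCAO) as its disease state. Of the 12 samples listed, 10 had a column: Cort+/+ replicates 1, 2 and 3 in both environments, Cort-/- replicates 1 and 2 under NX/NG, and Cort-/- replicates 1 and 3 after OGD-R. Cort-/- mice lacked cortistatin in the whole animal and not in the endothelium alone, and the Cort+/+ cells came from separate mice. The comparisons ask how the genotypes differ in each environment, how each genotype differs between environments, and whether those 2 differences are unequal.

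NF-kB is a family of transcription factor subunits that inhibitors of the IkB type hold in the cytoplasm until receptors of the TNF, IL-1 or Toll-like families release them. Released subunits bind kB motifs at genes that encode chemokines, cytokines and their own inhibitors, among them Nfkbia and Tnfaip3, so that the response limits itself. In brain endothelium this system governs the display of chemokines to circulating leukocytes, while cytokines of the IL-6 family, which signal through the shared receptor chain gp130 (Il6st), act through JAK and STAT factors.

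The kB motif is shown first, because it is the letter pattern that links many of these genes to NF-kB. RefSeq promoters of GRCm38.p6, each 300 bases long from 250 before to 50 after an annotated start, were at hand for 33 of the 48 members. The 10-letter kB consensus was searched on both strands, and overlapping matches that begin at different bases were each counted. It matched in 15 of these 33 genes (45.5%), against 9.55% of the 27025 genes with a promoter of that length. The 15 genes were Ccl9, Csf1, Cxcl1, Cxcl2, Cxcl10, Il1r1, Il4ra, Il6, Il16, Lif, Nfkb2, Nfkbia, Tlr2, Tlr3 and Tnfaip3. The 100 bases that precede the start are given below for an NF-kB subunit, its inhibitor, a chemokine, Il6, the chemokine Ccl9, and Il11, a cytokine that has no match at either of its 2 listed starts. Matches are in capitals, and a match is a string of letters and not a measured binding site.
Nfkb2, chr19 first listed start, chr19:46304637-46304736, plus strand: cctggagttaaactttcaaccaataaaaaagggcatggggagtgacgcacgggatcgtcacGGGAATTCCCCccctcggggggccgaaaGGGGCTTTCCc
Nfkbia, chr12:55492648-55492747, minus strand: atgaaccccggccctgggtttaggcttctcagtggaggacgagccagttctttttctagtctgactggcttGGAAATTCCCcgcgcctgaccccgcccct
Cxcl1, chr5:90891145-90891244, plus strand: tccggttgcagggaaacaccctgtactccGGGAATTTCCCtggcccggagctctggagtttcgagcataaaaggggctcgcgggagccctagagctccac
Il6, chr5:30013014-30013113, plus strand: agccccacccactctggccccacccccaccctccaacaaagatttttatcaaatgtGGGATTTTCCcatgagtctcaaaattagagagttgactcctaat
Ccl9, chr11:83578637-83578736, minus strand: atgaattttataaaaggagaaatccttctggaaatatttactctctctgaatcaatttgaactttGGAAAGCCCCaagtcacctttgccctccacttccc
Il11, chr7:4778142-4778241, minus strand: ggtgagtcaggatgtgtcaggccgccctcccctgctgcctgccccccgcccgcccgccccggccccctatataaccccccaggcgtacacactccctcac
The matches of Nfkb2 begin 39, 38 and 11 bases before the start, that of Nfkbia 29, that of Ccl9 35, that of Il6 44, and those of Cxcl1 71 and 70 bases before it.

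The libraries held 12386048 to 12390428 reads on genes. The endothelial markers, 10 genes led by Cdh5 and Pecam1, summed to between 857 and 1309 RPKM (the reads of a gene divided by its length and by library size; marker values are as deposited) in every library, with the brain endothelial transporter Slco1a4 at 0.496 RPKM or below. The macrophage list of 12 genes, cells that could themselves supply chemokines, summed to 2.71 to 4.40 RPKM, with Csf1r and Cd68 alone above 1 RPKM, Ptprc at or below 0.0320 RPKM, and Tyrobp and Adgre1 not listed; the lymphocyte list did not pass 0.469 RPKM. The pericyte and smooth muscle list of 8 genes summed to 1004 to 1782 RPKM, a range that reaches above that of the endothelial list. It was led by Acta2 (630 to 1080 RPKM) and Tagln (358 to 684 RPKM). Epithelial markers summed to 50.8 RPKM in Cort+/+ NX/NG replicate 2, 37.9 RPKM in Cort-/- OGD-R replicate 1 and 1.75 to 14.3 RPKM elsewhere. A pair of libraries stood apart in ribosomal RNA, Cort+/+ replicate 1 (0.0775% of reads) and Cort-/- replicate 3 (0.0951%) after OGD-R, where the other 8 libraries held 7.64% to 15.8%. Most log2 folds of members that rest on OGD-R are therefore also given without this pair, which leaves 2 Cort+/+ libraries and 1 Cort-/- library after OGD-R. Those of the other pathway genes are given with all libraries only. Cort itself had at most 2 reads in any library, the Cort+/+ libraries included, and does not check the genotype labels. In bulk RNA, fewer cells of a type and less RNA per cell cannot be told apart.

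Of the 46 members in both tables, 36 had a mean of at least 0.5 RPKM over the 10 libraries, 32 of at least 1 RPKM and 11 of at least 10 RPKM. Levels are given on 1 scale that was set jointly for all 10 libraries from their recovered reads. The order ran from Spp1 (935 RPKM), through Ccl2 (279.6 RPKM), Cxcl12 (85.4 RPKM), Csf1 (64.2 RPKM), Nfkbia (42.1 RPKM) and Tnfrsf1a (41.1 RPKM), to Il1b, which had 0 or 1 read in every library. All 7 NF-kB and feedback genes and all 6 sensors and adaptors were above 1 RPKM. The low members were instead ligands and 2 receptors: Ccl5, Cxcl5, Cxcl10, Il1a, Il1b, Il6, Il33, Csf3, Il6ra and Il1rl1 were below 0.5 RPKM, and Cxcl9 and Cxcl11 had at most 2 reads and 1 read in the table that lists each.

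**Figure D1:**
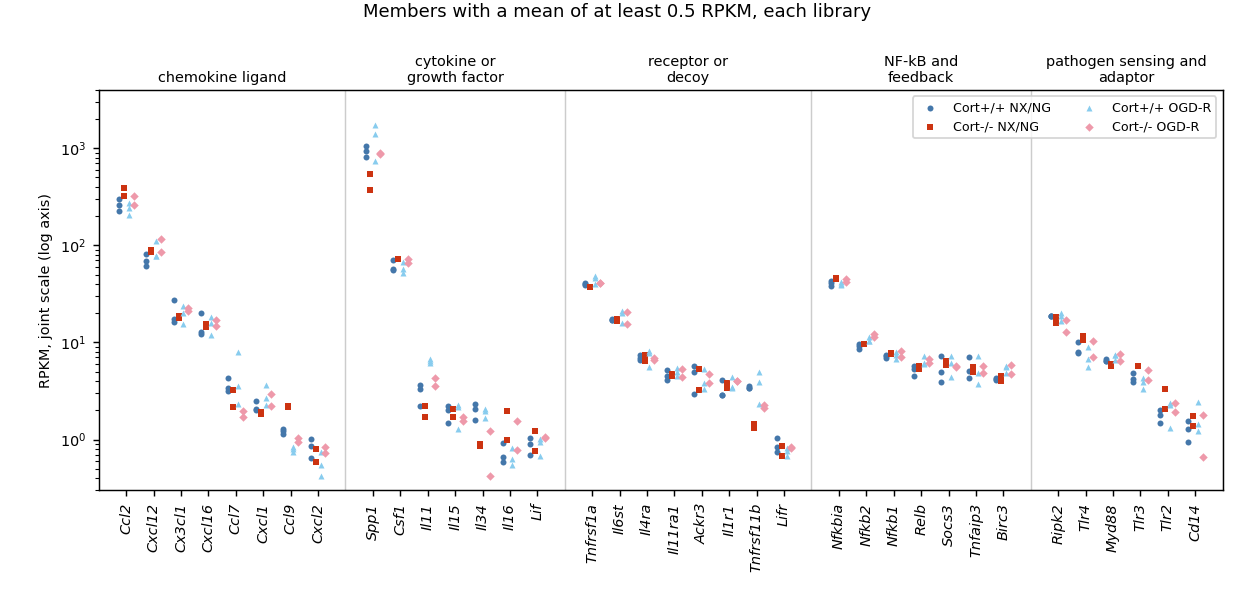
Level of each of the 36 members with a mean of at least 0.5 RPKM, in RPKM on the joint scale (log axis), by role and in order of the mean; each point is 1 library and the marker gives its group. Spp1 lies highest with a mean of 935 RPKM, and the spread between libraries is narrow for Nfkbia (38.1 to 46.5 RPKM) and wide for Tnfrsf11b (1.33 to 5.01 RPKM).

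No member passed an FDR of 0.05 in any of the 5 comparisons with limma. Under NX/NG, 0 of 37 members tested were called (0% of all 15695 genes were called), and 7 of 37 (18.9%) had an unadjusted p under 0.05, against 12.5% of all genes. After OGD-R, 0 of 37 members were called (0% of 15785 genes), and 2 (5.41%) had such a p, against 3.59% of all genes. Between environments, 0 of 38 members were called in Cort+/+ (0% of 15759 genes) and 5 (13.2%) had such a p, against 6.5% of all genes; in Cort-/- 0 of 36 were called (0% of 15676 genes) and 5 (13.9%) had one, against 3.87%. For the interaction, 0 of 36 members were called (0% of 15714 genes) and 1 (2.78%) had such a p, against 1.88%. The median log2 fold of the members was 0.00 under NX/NG and 0.05 after OGD-R between genotypes, and 0.04 in Cort+/+ and 0.05 in Cort-/- between environments, beside 0.01, -0.01, 0.00 and -0.01 over all genes tested. With limma-voom on the recovered reads, a test that weights each value by its read depth, Spp1 and Tnfrsf11b were called lower in Cort-/- BECs under NX/NG, among 69 genes of which 8 were higher; no member was called by it in the other 4 comparisons, where 3, 5, 5 and 0 members had an unadjusted p under 0.05, against 3.4%, 6.17%, 4.11% and 1.52% of all genes. The 11 members with such a p in at least 1 limma comparison are described with the other members of their role. The comparisons share libraries (each group enters a genotype and an environment comparison), so their values are given side by side and are not independent of each other. Where groups are said not to overlap, this describes the libraries of that gene only. The share of all genes whose groups did not overlap was not computed.

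**Figure D2:**
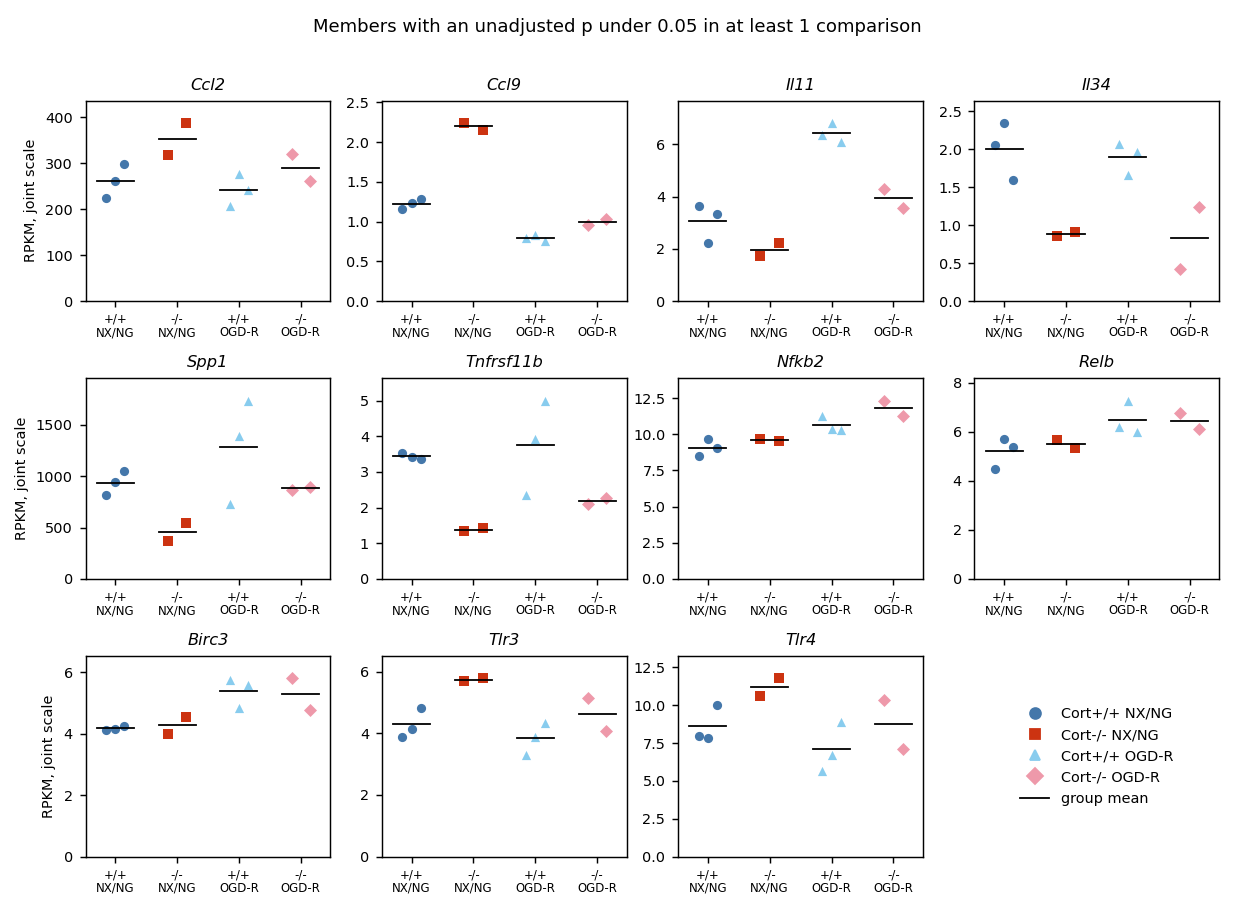
RPKM on the joint scale in each library (points) and the group mean (line) for the 11 members with an unadjusted p under 0.05 in at least 1 comparison, with every axis starting at 0. Ccl9 stands at 2.16 and 2.24 RPKM in Cort-/- BECs under NX/NG and at most 1.29 RPKM elsewhere, and Il11 is higher after OGD-R than under NX/NG in both genotypes.

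Among the chemokines, Ccl9 (a CC chemokine of mice that attracts myeloid cells) had values that did not overlap in any of the 4 pairwise comparisons, and Ccl2 (MCP-1, which recruits monocytes) was the most abundant. Ccl9 had 1.15, 1.23 and 1.29 RPKM in Cort+/+ and 2.24 and 2.16 RPKM in Cort-/- BECs under NX/NG, and 0.792, 0.836 and 0.750 RPKM in Cort+/+ and 0.955 and 1.03 RPKM in Cort-/- BECs after OGD-R. Its Cort-/- libraries lay above every Cort+/+ library in each environment, and each genotype was lower after OGD-R without overlap. These levels rest on 28 to 82 reads, and after OGD-R on 34, 29 and 28 reads in Cort+/+ and 35 and 44 reads in Cort-/- BECs. The log2 fold of Cort-/- over Cort+/+ was 0.79 under NX/NG (95% interval 0.47 to 1.12; limma FDR = 0.196; limma-voom FDR = 0.0864) and 0.29 after OGD-R (-0.30 to 0.89; limma FDR = 0.999). Between environments it was -0.57 in Cort+/+ (-0.97 to -0.17; limma FDR = 0.748) and -1.07 in Cort-/- BECs (-1.55 to -0.59; limma FDR = 0.913). With both libraries low in ribosomal RNA left out, Ccl9 had log2 folds of 0.24 between genotypes after OGD-R, and of -0.57 in Cort+/+ and -1.12 in Cort-/- BECs between environments.

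Ccl2 had 224.5, 262 and 298 RPKM in Cort+/+ and 319 and 388 RPKM in Cort-/- BECs under NX/NG, where the genotypes did not overlap. After OGD-R it had 207, 275.5 and 241 RPKM in Cort+/+ and 321 and 261 RPKM in Cort-/- BECs, and the groups overlapped. The log2 fold between genotypes was 0.43 under NX/NG (0.05 to 0.81; limma FDR = 0.360) and 0.27 after OGD-R (-0.17 to 0.72; limma FDR = 0.999), and the former is 1.35-fold. Without both libraries low in ribosomal RNA, the value after OGD-R was 0.315 (limma FDR = 0.843). The sum of the endothelial markers was 1119 and 1239 RPKM in these Cort-/- libraries and 857 to 1122 RPKM in the Cort+/+ libraries under NX/NG, and its part in the level of Ccl2 was not tested.

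Cxcl12, a chemokine that endothelium displays to lymphocytes and precursor cells, had 61.5, 68.6 and 81.8 RPKM in Cort+/+ and 84.9 and 90.5 RPKM in Cort-/- BECs under NX/NG. After OGD-R it had 76.8, 78.0 and 109.6 RPKM in Cort+/+ and 117 and 84.7 RPKM in Cort-/- BECs. The genotypes were apart under NX/NG and overlapped after OGD-R, with limma FDRs of 0.406 and 0.999. The transmembrane chemokine Cx3cl1 had 16.3, 27.5 and 17.2 RPKM in Cort+/+ and 18.9 and 17.9 RPKM in Cort-/- BECs under NX/NG, and 23.9, 20.1 and 15.6 RPKM in Cort+/+ and 20.97 and 22.8 RPKM in Cort-/- BECs after OGD-R. Its highest library was Cort+/+ NX/NG replicate 2, and the same library held the highest level of Cxcl16 (20.3 RPKM), the other transmembrane chemokine, whose lowest level was 12.0 RPKM. The group means of Cx3cl1 ranged from 18.4 to 21.9 RPKM, and its SD between the Cort+/+ replicates was 6.18 RPKM under NX/NG.

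The remaining chemokines were lower. The monocyte chemokine Ccl7 ranged from 1.69 to 7.89 RPKM, its highest library being Cort+/+ OGD-R replicate 2. After OGD-R it had 1.97 and 1.69 RPKM in Cort-/- and 2.34 to 7.89 RPKM in Cort+/+ BECs, without overlap. The log2 fold was -1.105 (-2.32 to 0.11, limma FDR = 0.999), and -1.49 to -0.63 over the alternative fits. The neutrophil chemokines Cxcl1 and Cxcl2 ranged from 1.81 to 3.61 RPKM and from 0.424 to 1.01 RPKM. Ccl5, which draws T cells and monocytes, had 1 to 11 reads, the interferon-induced Cxcl10 had 3 to 15 reads, and Cxcl5 had 0 to 10 reads per library. Of the chemokines tested under NX/NG, 9 of 13, none but Ccl2 and Ccl9 had an unadjusted p under 0.05, and after OGD-R none of 8 had one.

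Among the cytokines, Spp1 and Il34 were lower in Cort-/- BECs under NX/NG and Il11 was higher after OGD-R in both genotypes, without passing the FDR with limma. Spp1 (osteopontin, a secreted integrin ligand and cytokine) had 818, 945 and 1052 RPKM in Cort+/+ and 368 and 542 RPKM in Cort-/- BECs under NX/NG. After OGD-R it had 731, 1396 and 1738 RPKM in Cort+/+ and 867 and 896 RPKM in Cort-/- BECs. The genotypes were apart under NX/NG and overlapped after OGD-R through Cort+/+ replicate 1, a library low in ribosomal RNA. The log2 fold was -1.07 under NX/NG (-1.57 to -0.57; limma FDR = 0.215), that is, 2.10-fold lower, and limma-voom called it (FDR = 0.0497). After OGD-R it was -0.46 (-1.42 to 0.51; limma FDR = 0.999), with -0.82 without Cort+/+ replicate 1 (limma FDR = 0.998) and -0.20 without Cort+/+ replicate 3 (limma FDR = 1.00). Between environments the log2 fold was 0.98 in Cort-/- BECs (0.32 to 1.64; limma FDR = 0.938) and 0.37 in Cort+/+ BECs (-0.40 to 1.15; limma FDR = 0.866). Without both libraries low in ribosomal RNA, the value after OGD-R was -0.84 (limma FDR = 0.784), and the environment values were 0.96 in Cort-/- and 0.74 in Cort+/+ BECs.

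Il34, a second ligand of the CSF1 receptor that sustains microglia, had 2.05, 2.34 and 1.59 RPKM in Cort+/+ and 0.850 and 0.910 RPKM in Cort-/- BECs under NX/NG. After OGD-R it had 2.06, 1.66 and 1.96 RPKM in Cort+/+ and 0.424 and 1.24 RPKM in Cort-/- BECs. Every Cort-/- library was below every Cort+/+ library in both environments. The log2 fold was -1.08 under NX/NG (-1.59 to -0.57; limma FDR = 0.215) and -1.25 after OGD-R (-2.28 to -0.21; limma FDR = 0.999). Without both libraries low in ribosomal RNA, which leaves a single Cort-/- library after OGD-R, the latter was -1.86 (limma FDR = 0.677), and without Cort-/- OGD-R replicate 1 it was -0.57 (limma FDR = 0.999). These levels rest on 10 to 59 reads. Csf1, the other ligand of that receptor, was far more abundant, with 55.6, 71.1 and 57.0 RPKM in Cort+/+ and 71.7 and 72.8 RPKM in Cort-/- BECs under NX/NG. After OGD-R Csf1 had 67.1, 56.6 and 51.7 RPKM in Cort+/+ and 66.1 and 72.1 RPKM in Cort-/- BECs, with log2 folds between genotypes of 0.24 and 0.25 and intervals that include 0, and of 0.29 after OGD-R without both libraries low in ribosomal RNA.

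Il11, a cytokine of the IL-6 family known for its part in fibrosis, had 3.65, 2.21 and 3.34 RPKM in Cort+/+ and 1.72 and 2.22 RPKM in Cort-/- BECs under NX/NG. After OGD-R it had 6.38, 6.83 and 6.11 RPKM in Cort+/+ and 4.31 and 3.57 RPKM in Cort-/- BECs. Both genotypes lay higher after OGD-R without overlap, and after OGD-R the Cort-/- libraries lay below the Cort+/+ libraries, while the genotypes overlapped under NX/NG. The log2 fold between environments was 1.08 in Cort+/+ (0.63 to 1.53; limma FDR = 0.491) and 0.97 in Cort-/- BECs (0.45 to 1.48; limma FDR = 0.938). The difference between these responses was -0.11 (-0.78 to 0.57; limma FDR = 1.00), and its sign turned when some libraries were left out. Between genotypes the log2 fold was -0.70 after OGD-R (-1.02 to -0.38; limma FDR = 0.662) and -0.60 under NX/NG (-1.23 to 0.03; limma FDR = 0.414). Without both libraries low in ribosomal RNA, the value after OGD-R was -0.57 (limma FDR = 0.738), and the environment values were 1.08 and 1.10. Il11 was counted from 43 to 187 reads per library.

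Il6, the founding member of the family, was at the limit of this depth. It had 4, 6 and 6 reads in Cort+/+ and 2 and 10 reads in Cort-/- BECs under NX/NG, and 11, 5 and 12 reads in Cort+/+ and 7 and 6 reads in Cort-/- BECs after OGD-R. On the joint scale its mean ± SD under NX/NG was 0.183 ± 0.0419 RPKM over 3 Cort+/+ libraries and 0.201 ± 0.188 RPKM over 2 Cort-/- libraries. After OGD-R these were 0.302 ± 0.112 RPKM and 0.208 ± 0.0446 RPKM. The groups overlapped in every comparison, and Il6 lay below the level of 0.5 RPKM at which a gene was tested. The alarmin Il33 had 63 and 23 reads in Cort+/+ OGD-R replicates 2 and 3 and at most 14 reads elsewhere. It reached the level for testing only in fits that held those libraries. Its log2 fold was 1.60 between environments in Cort+/+ (-0.47 to 3.67, limma FDR = 0.841). Between genotypes after OGD-R it was -1.40 (-4.02 to 1.22, limma FDR = 0.999). The IL-1 ligands Il1a and Il1b had at most 7 reads and 1 read, and the granulocyte factor Csf3 at most 5 reads. Il15, Il16 and Lif were detected at 1.29 to 2.25, 0.550 to 1.95 and 0.675 to 1.23 RPKM, and none had an unadjusted limma p under 0.05 in any comparison. Il16 lay higher in Cort-/- (0.98 and 1.95 RPKM) than in Cort+/+ BECs (0.584 to 0.928 RPKM) under NX/NG. Its unadjusted limma-voom p between genotypes was 0.0159 under NX/NG and 0.0496 after OGD-R, where the groups overlapped.

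Among the receptors and decoys, Tnfrsf11b (osteoprotegerin, a secreted decoy that binds RANKL and TRAIL) was lower in Cort-/- BECs under NX/NG and had the lowest p of any member in any comparison. It had 3.53, 3.43 and 3.38 RPKM in Cort+/+ and 1.33 and 1.44 RPKM in Cort-/- BECs under NX/NG. After OGD-R it had 2.34, 3.92 and 5.01 RPKM in Cort+/+ and 2.09 and 2.28 RPKM in Cort-/- BECs. The genotypes were apart in both environments, by a narrow margin after OGD-R. The log2 fold was -1.26 under NX/NG (-1.50 to -1.02; limma FDR = 0.0794), that is, 2.40-fold lower, and limma-voom called it (FDR = 0.0269). After OGD-R it was -0.69 (-1.48 to 0.10; limma FDR = 0.999), with -0.99 without Cort+/+ replicate 1 (limma FDR = 0.803), the lowest Cort+/+ library and low in ribosomal RNA, and -0.46 without Cort+/+ replicate 3 (limma FDR = 1.00). The log2 fold between environments was 0.62 in Cort-/- (0.18 to 1.07; limma FDR = 0.938) and 0.06 in Cort+/+ BECs (-0.56 to 0.68; limma FDR = 0.983), and the latter was -0.18 without Cort+/+ OGD-R replicate 3. Without both libraries low in ribosomal RNA, the genotype value after OGD-R was -1.05 (limma FDR = 0.709), and the environment values were 0.56 in Cort-/- and 0.36 in Cort+/+ BECs. Some mural and fibroblast transcripts were also lower in the Cort-/- libraries under NX/NG, as deposited, with Col1a1 at 46.5 and 67.5 RPKM against 113 to 166 RPKM, Pdgfrb at 5.17 and 7.66 RPKM against 12.1 to 13.5 RPKM, and Cspg4 at 0.679 and 1.36 RPKM against 3.55 to 4.13 RPKM in Cort+/+. Pdgfra was instead higher, at 0.485 and 0.706 RPKM against 0.319 to 0.366 RPKM, and the smooth muscle gene Myh11 had 2.11 and 1.42 RPKM against 1.21 to 1.56 RPKM. The whole fibroblast list of 8 genes, of which Slc22a6 was not listed and only Col1a1 and Dcn passed 1 RPKM in a library, summed to 48.2 and 69.1 RPKM in Cort-/- and 115 to 168 RPKM in Cort+/+ BECs under NX/NG, and to 122 to 143 RPKM and 132 to 225 RPKM after OGD-R. The pericyte and smooth muscle list of 8 genes, with Kcnj8 at or near 0, summed to 1298 and 1547 RPKM in Cort-/- and 1455 to 1782 RPKM in Cort+/+ BECs under NX/NG. After OGD-R that list summed to 1004 and 1488 RPKM in Cort-/- and 1342 to 1703 RPKM in Cort+/+ BECs. The part of such cells in the values of Tnfrsf11b, Spp1 and Il34 was not tested.

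Tnfrsf1a, the main receptor for TNF, had 41.4, 39.4 and 40.1 RPKM in Cort+/+ and 37.6 and 36.8 RPKM in Cort-/- BECs under NX/NG, and 45.7, 48.2 and 40.2 RPKM in Cort+/+ and 40.9 and 41.1 RPKM in Cort-/- BECs after OGD-R. Its genotypes were apart under NX/NG by a log2 fold of -0.12 (-0.25 to 0.01; limma FDR = 0.419) and overlapped after OGD-R. Il6st had 17.1, 16.8 and 17.4 RPKM in Cort+/+ and 16.5 and 17.4 RPKM in Cort-/- BECs under NX/NG, and 20.1, 15.8 and 21.1 RPKM in Cort+/+ and 20.4 and 15.4 RPKM in Cort-/- BECs after OGD-R, and its groups overlapped in every comparison. The partner chains of Il6st differed in level: Il11ra1 ranged from 4.09 to 5.52 RPKM, Lifr from 0.676 to 1.03 RPKM and Il6ra from 0.394 to 0.561 RPKM. Il11ra1 has near-identical copies in the mouse genome, so its value is uncertain. The IL-1 receptor Il1r1 ranged from 2.85 to 4.45 RPKM, the IL-4 receptor chain Il4ra from 5.54 to 8.23 RPKM, the CXCL12 scavenger Ackr3 from 2.95 to 5.74 RPKM, and the IL-33 receptor Il1rl1 had 7 to 21 reads. Apart from Tnfrsf11b, no receptor had an unadjusted p under 0.05 in a comparison in which it was tested.

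**Figure D3:**
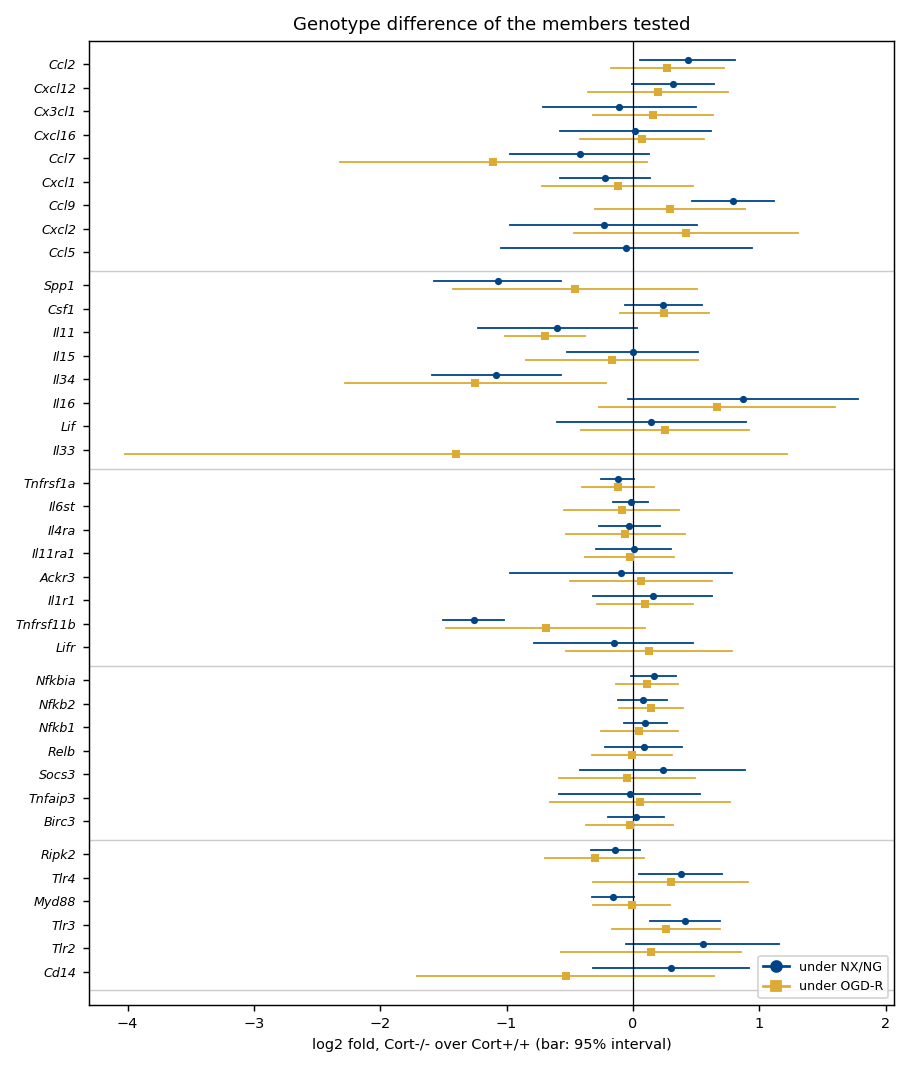
Log2 fold of Cort-/- over Cort+/+ with its 95% interval for each member tested, under NX/NG and after OGD-R, by role. Tnfrsf11b (-1.26), Il34 (-1.08) and Spp1 (-1.07) have intervals below 0 under NX/NG. Ccl9 (0.79), Ccl2 (0.43), Tlr3 (0.41) and Tlr4 (0.38) have intervals above 0 there. The intervals of the 7 NF-kB and feedback genes include 0 in both environments.

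No NF-kB or feedback gene had an unadjusted p under 0.05 between genotypes, and 3 of the 7 were higher after OGD-R in Cort+/+ BECs at an unadjusted p under 0.05, beside 6.5% of all genes with such a p in either direction. In Cort-/- BECs 1 of the 7, Nfkb2, had such a p, beside 3.87% of all genes. Nfkb2, the p100 precursor of the p52 subunit, had 8.51, 9.66 and 9.08 RPKM in Cort+/+ and 9.68 and 9.54 RPKM in Cort-/- BECs under NX/NG, and 11.3, 10.4 and 10.3 RPKM in Cort+/+ and 12.3 and 11.2 RPKM in Cort-/- BECs after OGD-R. Its environments did not overlap in either genotype, with log2 folds of 0.23 in Cort+/+ (0.04 to 0.42; limma FDR = 0.748) and 0.29 in Cort-/- BECs (0.02 to 0.56; limma FDR = 0.938). Without the library low in ribosomal RNA of each genotype these were 0.19 (limma FDR = 0.586) and 0.36 (limma FDR = 0.960). Relb, the partner of p52, had 4.49, 5.71 and 5.38 RPKM in Cort+/+ and 5.68 and 5.34 RPKM in Cort-/- BECs under NX/NG, and 6.21, 7.27 and 6.00 RPKM in Cort+/+ and 6.78 and 6.12 RPKM in Cort-/- BECs after OGD-R. Its environments were likewise apart in both genotypes, with log2 folds of 0.32 (0.03 to 0.61; limma FDR = 0.755) and 0.22 (-0.08 to 0.53; limma FDR = 0.938), and of 0.35 and 0.30 without the library low in ribosomal RNA of each genotype.

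Birc3, the ubiquitin ligase cIAP2 that restrains the same branch of the pathway, had 4.12, 4.16 and 4.26 RPKM in Cort+/+ and 3.99 and 4.56 RPKM in Cort-/- BECs under NX/NG, and 5.74, 4.83 and 5.60 RPKM in Cort+/+ and 5.80 and 4.79 RPKM in Cort-/- BECs after OGD-R. It was higher after OGD-R in both genotypes without overlap, with log2 folds of 0.35 in Cort+/+ (0.14 to 0.57; limma FDR = 0.748) and 0.30 in Cort-/- BECs (-0.11 to 0.71; limma FDR = 0.938), and of 0.31 and 0.44 without the library low in ribosomal RNA of each genotype. Nfkbia, which encodes the inhibitor IkB-alpha, had 38.1, 43.2 and 40.7 RPKM in Cort+/+ and 45.0 and 46.5 RPKM in Cort-/- BECs under NX/NG. After OGD-R Nfkbia had 41.7, 40.1 and 38.6 RPKM in Cort+/+ and 41.6 and 45.3 RPKM in Cort-/- BECs. Its genotypes were apart under NX/NG by a log2 fold of 0.16 (-0.02 to 0.34; limma FDR = 0.420) and its environments overlapped in both genotypes. Nfkb1, the p105 precursor of p50, ranged from 6.74 to 8.13 RPKM, the deubiquitinase A20 (Tnfaip3) from 3.71 to 7.29 RPKM and the STAT inhibitor Socs3 from 3.90 to 7.33 RPKM, with no unadjusted p under 0.05.

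**Figure D4:**
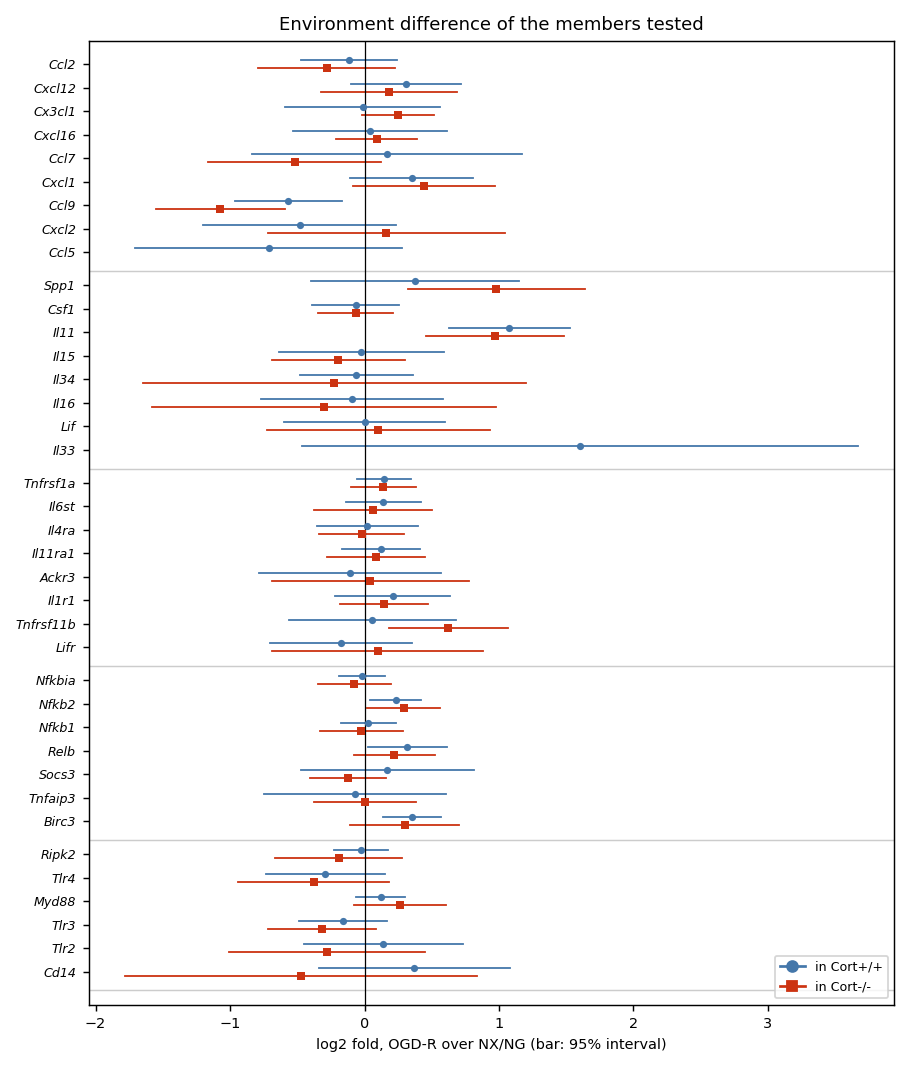
Log2 fold of OGD-R over NX/NG with its 95% interval for each member tested, in Cort+/+ and in Cort-/- BECs, by role, on jointly scaled RPKM. The interval of Il11 lies above 0 in both genotypes (1.08 and 0.97), that of Ccl9 below 0 in both (-0.57 and -1.07), and that of Nfkb2 narrowly above 0 in both (0.23 and 0.29).

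Of the 6 sensors and adaptors tested, 2 had an unadjusted p under 0.05 between genotypes under NX/NG, beside 12.5% of all genes. These were Tlr3 and Tlr4, both higher in Cort-/- BECs. Tlr3, the endosomal receptor of double-stranded RNA, had 3.88, 4.16 and 4.84 RPKM in Cort+/+ and 5.69 and 5.79 RPKM in Cort-/- BECs under NX/NG, and 3.28, 3.89 and 4.35 RPKM in Cort+/+ and 5.15 and 4.09 RPKM in Cort-/- BECs after OGD-R. Its genotypes were apart under NX/NG and overlapped after OGD-R, with log2 folds of 0.41 (0.13 to 0.69; limma FDR = 0.304) and 0.26 (-0.17 to 0.69; limma FDR = 0.999). Tlr4, the receptor of lipopolysaccharide, had 7.95, 7.83 and 10.01 RPKM in Cort+/+ and 10.6 and 11.8 RPKM in Cort-/- BECs under NX/NG, and 5.64, 6.71 and 8.91 RPKM in Cort+/+ and 10.4 and 7.11 RPKM in Cort-/- BECs after OGD-R. It showed the same layout, with log2 folds of 0.38 (0.05 to 0.71; limma FDR = 0.357) and 0.30 (-0.32 to 0.91; limma FDR = 0.999). After OGD-R the values were 0.32 for Tlr3 and 0.42 for Tlr4 without both libraries low in ribosomal RNA, and 0.10 and 0.03 without Cort-/- replicate 1. The lipoprotein receptor Tlr2 ranged from 1.33 to 3.31 RPKM and the co-receptor Cd14 from 0.659 to 2.43 RPKM. The shared adaptor Myd88 stayed between 5.75 and 7.68 RPKM and the kinase Ripk2, which serves the NOD receptors, between 12.9 and 19.9 RPKM. Under NX/NG their log2 folds between genotypes were -0.16 and -0.14, with intervals that include 0. Tlr2, Myd88 and Ripk2 were apart between genotypes under NX/NG and overlapped after OGD-R. None of Tlr2, Cd14, Myd88 and Ripk2 had an unadjusted limma p under 0.05.

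Whether the genotypes responded unequally to OGD-R was tested for 36 members. Ccl9 had the only unadjusted p under 0.05, with a difference of responses of -0.51 on the log2 scale (-0.98 to -0.03; limma FDR = 1.00). For Spp1 and Tnfrsf11b, whose genotype differences were larger under NX/NG than after OGD-R, the difference of responses was 0.61 (-0.49 to 1.70) and 0.57 (-0.27 to 1.40), each with an interval that includes 0. Without Cort+/+ OGD-R replicate 1, these were 0.24 and 0.27. The differences of responses were -0.56 for Ccl9, 0.22 for Spp1 and 0.21 for Tnfrsf11b without both libraries low in ribosomal RNA.

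The rest of the pathway was represented by 168 other genes, of which 102 were tested in at least 1 comparison and none was called with limma. Under NX/NG, 12 of 100 had an unadjusted p under 0.05 (12% against 12.5% of all genes), 5 higher and 7 lower in Cort-/- BECs. After OGD-R there were 3 of 101 (2.97% against 3.59% of all genes), of which 1 was higher. In Cort+/+ 8 of 101 had such a p between environments (7.92% against 6.5%), 6 of them higher after OGD-R. In Cort-/- there was 1 of 100 (1% against 3.87%), which was higher, and for the interaction 0 of 101 (against 1.88%). The TNF receptor 2 gene Tnfrsf1b had the lowest p, with a mean ± SD under NX/NG of 9.10 ± 0.997 RPKM over the 3 Cort+/+ libraries and 2.89 ± 0.281 RPKM over the 2 Cort-/- libraries as deposited, a log2 fold of -1.62 (limma FDR = 0.0794; limma-voom FDR = 0.0132). After OGD-R its log2 fold was -1.80 (limma FDR = 0.537). Osmr, the oncostatin M receptor that pairs with Il6st, had log2 folds of -0.82 and -0.60 between genotypes in the 2 environments, and limma-voom called it under NX/NG (FDR = 0.0372). Among genes with the lowest p between environments in Cort+/+ BECs were the NF-kB subunit Rela (0.26), the nuclear IkB proteins Nfkbiz (0.30) and Bcl3 (0.48), and the IL-1 receptor kinase Irak2 (0.27), all with a limma FDR of 0.748. Of the 23 other NF-kB genes tested there, 3 were higher and 1 was lower after OGD-R at an unadjusted p under 0.05. Their median log2 fold was 0.0006. In Cort-/- BECs 0 of 24 had such a p, with a median of 0.007. The death receptor Fas (-0.87), the necroptosis kinase Ripk3 (-0.38), the TLR4 partner Ly96 (0.27) and the deubiquitinase Cyld (0.29) had log2 folds between genotypes under NX/NG with limma FDRs between 0.240 and 0.290.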

How the data were processed

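RNA-seq of 10 libraries of primary mouse BECs was used. The authors deposited RPKM in 2 separately scaled tables, of 29965 genes for NX/NG and 29775 for OGD-R; the submitters' processing notes name edgeR, and aligner, genome build, annotation and use of strand are not given in the sources used here. The authors' p-value, FDR and log2 fold columns hold their own comparison of the genotypes and were not used, nor were 10 columns of expression categories.

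Multiplied by gene length, 100% of the RPKM values were whole multiples of a library's step within 0.05, which gave back the reads (12386048 to 12390428 per library, a near equality for which no reason is given). Groups with no library above 3 reads were taken as at the floor, which covers counting error only. For environments, the 27321 shared genes were scaled jointly over all libraries with the trimmed mean of M values, which moved values by a factor of 0.974 to 1.03. Levels of members use this scale; levels of markers and other pathway genes, and genotype tests, use the deposited values. Environments cannot be told apart from any batch they were prepared in.

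Fits used limma 3.58.1 in R 4.3.3 with a mean trend on log2(RPKM + 0.1), which understates folds of low genes. Genes averaging 0.5 RPKM or more in the libraries fitted were tested. The size of the folds was checked on simulated reads with a common dispersion and no library low in ribosomal RNA. That check does not cover the spread within the real OGD-R groups. Only the compared groups entered a fit, and the interaction used all 4. P-values, which measure the spread between the libraries of a group, were adjusted by Benjamini-Hochberg over all genes tested, with calls at an FDR up to 0.05. Each OGD-R group mixes a library low in ribosomal RNA with others. The spread in fits with OGD-R libraries therefore holds that difference too and is not that between pools of mice alone. Intervals are 95% limma intervals, and an unadjusted p is that of limma unless limma-voom is named.

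Members, roles, pathway genes and marker lists were chosen with earlier results of these data known. Every library's value is given for members with an unadjusted p under 0.05 in a fit, the 8 most abundant, Il6 and Ccl2; up to 10 other pathway genes with the lowest p are named. Alternatives were a pseudocount of 1, no filter or a stricter one of 1 RPKM, quantile normalization, a block for replicate number, a term for low ribosomal RNA, limma-voom, the deposited or within-table scaling, all groups in 1 fit and each library left out; leaving out both libraries low in ribosomal RNA was added after seeing the data.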

Additional observations from a re-analysis of the deposited data

How the results depend on the processing

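The number of genes called was 0 in all 5 comparisons, and members called also 0, with these exceptions. Limma-voom called 69 genes between genotypes under NX/NG, 2 of them members (Spp1 and Tnfrsf11b) with 11 of 37 members and 15.2% of all genes at an unadjusted p under 0.05, and 1 gene after OGD-R. All groups in 1 fit called 3 genes between genotypes under NX/NG, 5 after OGD-R (with 5 members at an unadjusted p under 0.05) and 1 between environments in Cort-/-. A pseudocount of 1 called 2 genes between genotypes after OGD-R. No filter on low values called 9 genes between environments in Cort+/+ and 3 for the interaction. Apart from limma-voom under NX/NG, none of these calls was a member. Members at an unadjusted p under 0.05 for the interaction, 1 in the reported fit, were 0 with no filter, a mean of at least 1 RPKM, limma-voom, or without both libraries low in ribosomal RNA, and 2 with quantile normalization.

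With each library left out in turn, genes called for the interaction ranged from 0 to 2 and those of the other comparisons stayed at 0, while members at an unadjusted p under 0.05 ranged from 5 to 10 between genotypes under NX/NG, 2 to 4 after OGD-R, 3 to 7 between environments in Cort+/+, 3 to 9 in Cort-/- and 0 to 2 for the interaction. The 4 came without Cort+/+ OGD-R replicate 1, the 9 without Cort-/- OGD-R replicate 1, and the 3s without Cort+/+ NX/NG replicate 1 or 3 or without either Cort-/- NX/NG replicate. The interaction value of Il11 ranged from -0.28 to 0.11 with a library left out, against -0.11 in the reported fit, and was 0.0197 without both libraries low in ribosomal RNA; it turned positive without Cort+/+ NX/NG replicate 2 (0.11), Cort-/- NX/NG replicate 2 (0.0675) or Cort-/- OGD-R replicate 3 (0.0261). The environment value of Tnfrsf11b in Cort+/+, 0.06 as reported, ranged from -0.18 to 0.36 with a library left out and was negative without OGD-R replicate 2 (-0.0052) or 3 (-0.18). These were the 6 reversals among 556 recomputations of 38 member values named in the text. Over all members tested, 252 of 2765 recomputations reversed, none of them for the 20 values with an unadjusted p under 0.05, and the cause was not tested. Where a library left out leaves 1 in its group, that one is assumed to vary like the other group.

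Replicate numbers were not taken as pairs. Deviations of samples with the same number had correlations from -0.53 to 0.19 between groups, which cannot decide whether they share a pool of mice. In a group of 2 libraries the deviations mirror each other, and the 2 libraries low in ribosomal RNA bear different numbers. With the replicate block, no gene was called in the 4 comparisons where it could be fitted, and the members at an unadjusted p under 0.05 were 10, 3, 7 and 0 where the reported fits had 7, 2, 5 and 1. In Cort-/- the environments share only 1 number, so the block could not be fitted. The deposited scaling moved the median log2 fold of all genes to 0.0733 and 0.0686 between environments. Depth limits the low ligands, and groups of 2 and 3 limit every test.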
